A study of Mus musculus with 20 samples.

Results

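Entpd1 and 8 further genes of extracellular purine signalling were followed across E13.5 mouse hearts. Entpd1 was chosen from the measured values, because its level was higher by a like amount in Dp3Tyb and in Ts1Rhr hearts than in their own WT littermates. The other 8 genes, Entpd2, Entpd5, Nt5e, Adk, Ada, Adora1, Adora2a and P2ry1, were chosen by function. These 9 members were found among 48795 genes, and 8 of them passed the filter on low values described below. Entpd2 did not.

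The study asked which genes on mouse chromosome 16 cause congenital heart defects when present in an extra copy, as in Down syndrome. Dp3Tyb mice (Dp(16Mir802-Zbtb21)3TybEmcf) and Ts1Rhr mice (Dp(16Cbr1-Fam3b)1Rhr) carry a germline duplication of a segment of that chromosome in every cell, and both were kept on a C57BL/6J background. Whole hearts were dissected from 5 Dp3Tyb embryos, 5 WT embryos of the Dp3Tyb cohort, 5 Ts1Rhr embryos and 5 WT embryos of the Ts1Rhr cohort, all at E13.5, and poly(A) RNA was sequenced from each. All 5 Dp3Tyb hearts were labelled as having heart defects, as were Ts1Rhr replicates 1 and 2, while Ts1Rhr replicates 3, 4 and 5 were labelled as having none. Nothing in the labels ties a replicate of one group to a replicate of another, and p-values measure the spread between these hearts.

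ATP and ADP released by cells act on P2 receptors, and a chain of enzymes at the cell surface turns them into adenosine. Entpd1 (CD39) removes phosphates from ATP and ADP to give AMP, and Nt5e (CD73) turns AMP into adenosine, which acts on its own receptors until it is taken up and either phosphorylated by Adk or deaminated by Ada. In blood vessels CD39 is known for clearing the ADP that activates platelets, and it is also carried by macrophages and lymphocytes. In the heart adenosine is known for slowing the beat through Adora1 and widening coronary vessels through Adora2a.

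The gene Entpd1 lies at chr19:40612366-40741602 on the plus strand (GRCm38.p6, RefSeq), outside the chromosome duplicated in either strain. Its neighbour Tctn3, a gene of the ciliary transition zone, runs away from it on the minus strand from its start at position 40612324, so that the annotated starts of the 2 genes are separated by 41 bases. RefSeq gives Entpd1 another start 47404 bases further along, inside the gene. The bases between Tctn3 and the first Entpd1 start, and the 250 bases before the second, are shown because they are what the annotation places directly before Entpd1 transcripts. The window before Nt5e, the next enzyme of the chain, is shown with them for contrast, with its GC boxes in capitals.
Tctn3 to Entpd1, chr19:40612325-40612365, plus strand: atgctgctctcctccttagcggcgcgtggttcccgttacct
Entpd1 second start, chr19:40659520-40659769, plus strand: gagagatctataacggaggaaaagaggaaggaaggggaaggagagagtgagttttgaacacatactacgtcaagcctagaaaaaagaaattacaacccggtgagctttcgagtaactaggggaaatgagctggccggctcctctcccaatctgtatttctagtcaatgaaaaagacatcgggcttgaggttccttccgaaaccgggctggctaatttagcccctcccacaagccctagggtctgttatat
Nt5e, chr9:88327359-88327608, plus strand: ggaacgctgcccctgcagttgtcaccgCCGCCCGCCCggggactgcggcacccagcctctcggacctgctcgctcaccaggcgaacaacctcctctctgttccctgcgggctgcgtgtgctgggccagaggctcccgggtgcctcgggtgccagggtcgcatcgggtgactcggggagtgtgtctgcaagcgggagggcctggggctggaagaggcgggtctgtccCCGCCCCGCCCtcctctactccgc

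Windows of 250 bases before an annotated start were available for 8 of the 9 members, 11 windows in all, since some genes have 2 starts. Adora2a had none. They were searched on both strands for the GC box (GGGCGG), the ETS core (CCGGAA), the cAMP response element (TGACGTCA), the E-box (CACGTG) and the TATA box (TATAAA). No match was found in either Entpd1 window or in the 41 bases. The Entpd5 window and the window before the second Adora1 start held no match either. Nt5e held 4 GC boxes in overlapping pairs, and Ada, on chromosome 2, held 1 GC box and 3 ETS cores. Over all 32851 RefSeq windows of this length, 32.7% held a GC box, 12% an ETS core, 1.55% a cAMP response element, 6.02% an E-box and 12.4% a TATA box. These are matches of letters, not binding sites.

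Libraries held between 6.60 and 19.6 M (mega) reads. Values are reads divided by a size factor that makes the 20 libraries comparable, called normalised reads below. In 7 libraries genes of the mitochondrial genome took over 10% of reads, with a range of 4.85% to 19.5% over all libraries. The 2 highest in the Dp3Tyb cohort were WT replicate 5, which was also the shallowest library, and Dp3Tyb replicate 5, and both stood apart from the other libraries of their groups. In the Ts1Rhr cohort WT replicate 4 had 17.2% and 9.50 M reads, and Ts1Rhr replicates 1 and 2 differed from replicates 3 to 5 by a mean chi-square per gene of 37.9 to 84.1, against 6.58 to 18.2 among those 3 and 8.68 between the pair. Replicate 4 of that WT group differed from its other 4 libraries by 22.6 to 121. Cardiomyocyte markers were abundant in every heart, led by Myh7 and Actc1, and markers of endothelium and macrophages were present in every library.

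To place the members on one scale, normalised reads were divided by the exonic length of each gene. Entpd5, a nucleotidase of the secretory pathway that prefers UDP, had the highest level, with a mean over the 20 hearts of 115 normalised reads per kb. Adk, the adenosine kinase, followed with 114, and the levels of this pair did not differ beyond their spread, since Entpd5 was above Adk in 12 of 20 libraries. Entpd1 came next with 68.4 normalised reads per kb and was below Adk and above Adora1 in all 20 libraries.

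The 2 receptors Adora1 (43.2 normalised reads per kb) and P2ry1 (37.2) stood in that order in 17 of 20 libraries. Nt5e at 19.5 and Adora2a at 18.6 normalised reads per kb were close, with Nt5e higher in 13 of 20. The deaminase Ada reached 5.85 normalised reads per kb and Entpd2 1.86, each below the gene before it in all 20 libraries. So the level of the first enzyme of the chain, Entpd1, was above that of the second, Nt5e, in these whole hearts.

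**Figure D1:**
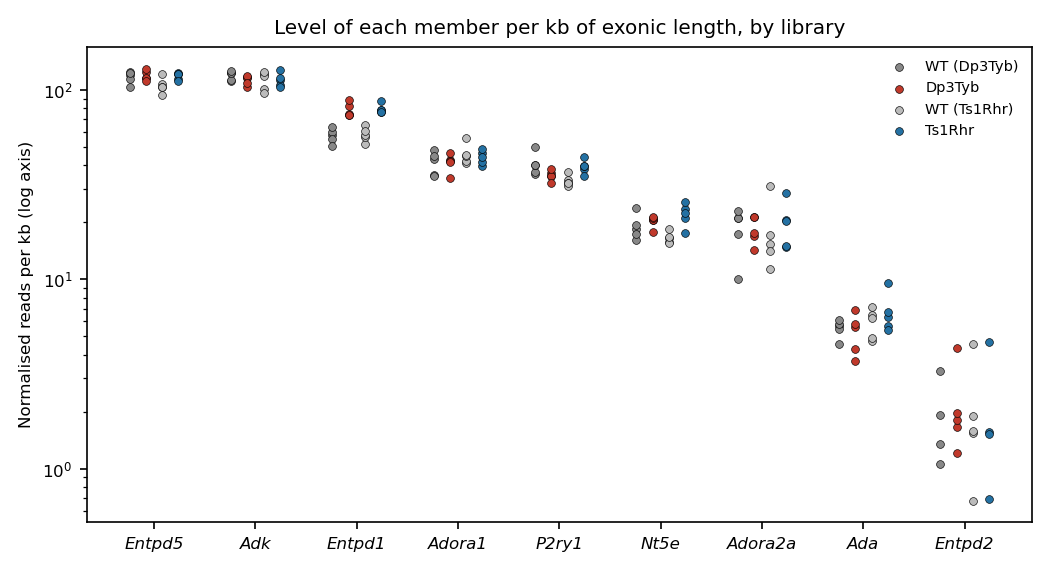
Normalised reads per kb of exonic length (vertical log axis) for each of the 9 members, 1 point per library and 1 colour per group, ordered by the mean over 20 hearts. Entpd5 and Adk lead, followed by Entpd1, and Entpd2 is lowest at 1.86 normalised reads per kb, where libraries at 0 could not be drawn on the log axis.

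Entpd1 was measured in the Dp3Tyb cohort at 410.4, 424.8, 453.6, 390.3 and 361.1 normalised reads in WT replicates 1 to 5, and at 583.3, 522.7, 532.2, 524.7 and 632.2 in Dp3Tyb replicates 1 to 5. Every Dp3Tyb heart was above every WT heart, with 69.1 normalised reads between the groups. In the Ts1Rhr cohort the values were 367.1, 462.2, 400.4, 411.5 and 431.0 in WT and 621.6, 560.3, 544.4, 558.4 and 543.1 in Ts1Rhr hearts. Here too the groups did not overlap, with a gap of 80.9 normalised reads.

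The group means were 559 ± 47.8 normalised reads in Dp3Tyb against 408 ± 34.9 in WT (SD, n = 5 each), and 565.5 ± 32.3 in Ts1Rhr against 414 ± 35.4 in WT. The ratio of means was 1.37 in Dp3Tyb and 1.36 in Ts1Rhr. On the log2(value + 1) scale the differences were 0.45 ± 0.08 (SE) in both strains, and they differed from each other by 0.0034 ± 0.11. These values chose the gene, so they are given without a test. In whole hearts a lower level may come from fewer cells of a type or from less RNA per cell, and these cannot be told apart. The comparison of each strain used its own WT hearts, and the WT means differed between cohorts by 0.02 ± 0.08 on the log2 scale.

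A pattern of no overlap with higher values in the mutant was found for 0.501% of the 14763 genes tested in Dp3Tyb and for 0.619% of the 14867 tested in Ts1Rhr. It was found in both strains for 22 of 14605 genes (0.151%), 10 of them on the duplicated chromosome. Among the 12 others, Entpd1 was 6th by the smaller of its log2 fold changes. The genes just inside and outside a threshold cannot be given, because the choice of Entpd1 had none.

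Both libraries with the most mitochondrial reads in the Dp3Tyb cohort held an extreme of Entpd1. WT replicate 5 was the lowest WT heart at 361.1 normalised reads, and Dp3Tyb replicate 5 the highest mutant heart at 632.2. Among the libraries with at most 10% of mitochondrial reads, the log2 fold change was 0.37 in Dp3Tyb and 0.40 in Ts1Rhr. In Ts1Rhr the 2 hearts labelled with heart defects had 621.6 and 560.3 normalised reads and the 3 without 543.1 to 558.4. The log2 fold change was 0.41 with those 3 hearts alone. The 2 labelled hearts were also the 2 Ts1Rhr hearts over 10% of mitochondrial reads (11.6% and 13.1%), so label and mitochondrial share cannot be told apart. The label also conflicts with the study, which describes Ts1Rhr embryos as free of congenital heart defects, so the split is by the label alone.

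**Figure D2:**
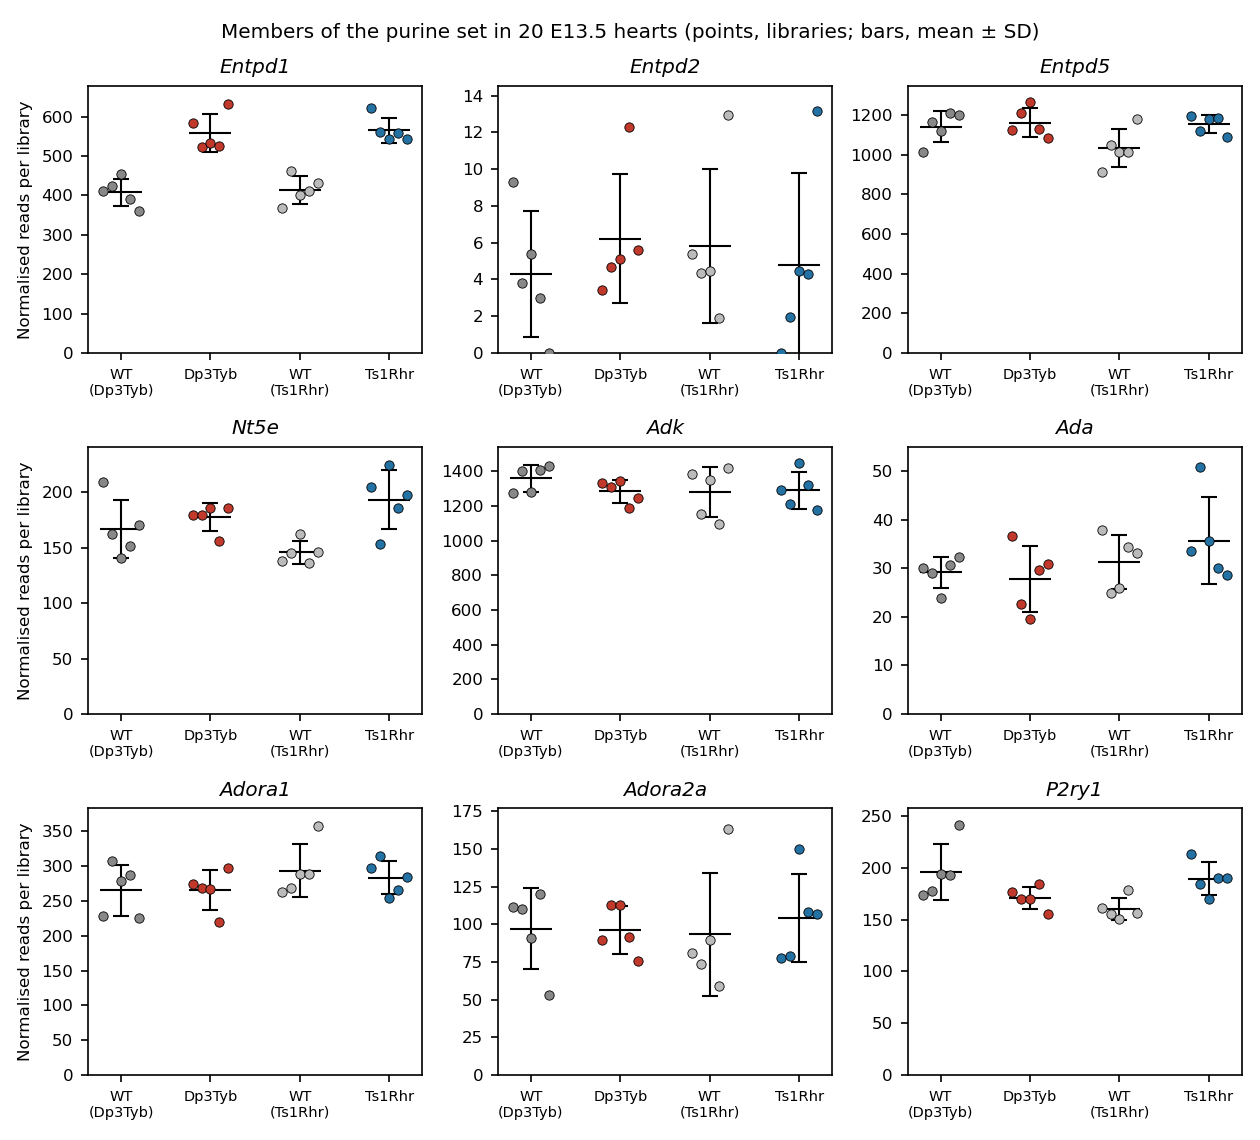
Normalised reads (vertical axis, from 0) of the 9 members in the 4 groups of 5 hearts, with points for libraries and bars for the mean and SD. Entpd1 is the member whose mutant hearts lie above every WT heart in both cohorts, at 522.7 to 632.2 against 361.1 to 453.6 and at 543.1 to 621.6 against 367.1 to 462.2.

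To ask whether the region around Entpd1 differed too, genes within 200 kb were followed. The 4 given here are Aldh18a1, an enzyme of proline synthesis, Tctn3, the cyclin gene Ccnj and the zinc finger gene Zfp518a. None of these passed the limma test in either strain. Nor did Entpd1 in the same fits, for which no p-value is given because its values chose it. Of all genes tested, 0.0542% passed in Dp3Tyb and 0.0269% in Ts1Rhr, so the count does not set these neighbours apart. For the 4 neighbours the sizes are given. Their log2 fold changes lay between -0.10 and 0.06 in Dp3Tyb and between -0.18 and 0.18 in Ts1Rhr. Tctn3, with its start 41 bases from that of Entpd1, differed by 0.06 ± 0.21 in Dp3Tyb and by 0.06 ± 0.13 in Ts1Rhr. The pseudogenes Gm16027 and Gm8783 lie inside the span of Entpd1 on the same strand, with mean values of 0.24 and 6.37 normalised reads, and reads shared with Entpd1 could not be told apart.

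Entpd1 is known from endothelium and macrophages, so marker genes of these cells were set beside it. The 10 endothelial markers, led by Cdh5 and Tek, summed to 15692 to 18215 normalised reads in Dp3Tyb and 16067 to 18218 in WT, and to 17297 to 18419 in Ts1Rhr and 16215 to 17636 in WT. The log2 difference of the sum was 0.01 in Dp3Tyb (exact permutation p = 0.849, adjusted p = 0.889 over the lists) and 0.07 in Ts1Rhr (exact permutation p = 0.0714, adjusted p = 0.393). Per 100 units of this sum Entpd1 was 2.98 to 3.55 in Dp3Tyb against 1.98 to 2.77 in WT, and 2.96 to 3.39 in Ts1Rhr against 2.26 to 2.62 in WT. The groups did not overlap on this scale, as on that of normalised reads, which chose the gene, so nothing is read from it.

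The summed level of the macrophage markers, led by Csf1r and Mrc1, differed in the same direction as Entpd1 in both strains, without passing the threshold after adjustment. The sum was 2244 to 2658 normalised reads in Dp3Tyb against 1583 to 2446 in WT, and 10 of 10 markers had a positive log2 fold change. In Ts1Rhr the sum was 1926 to 2742 against 1836 to 2152, with 9 of 10 positive. The log2 difference of the sum was 0.26 in Dp3Tyb (exact permutation p = 0.0397, adjusted p = 0.437) and 0.31 in Ts1Rhr (exact permutation p = 0.0317, adjusted p = 0.349), and no single marker passed the limma test.

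Per 100 units of the macrophage sum Entpd1 was 19.7 to 26.9 in Dp3Tyb against 16.8 to 22.8 in WT, and 19.8 to 32.3 in Ts1Rhr against 18.8 to 24.5 in WT. On this scale the groups overlapped in both cohorts. The part of macrophages in the difference of Entpd1 was not tested.

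Among hearts of the same group, the level of Entpd1 did not follow either list. After removing group means, Pearson's r with the mean log2 level of the macrophage markers was 0.04 (permutation p = 0.867, adjusted p = 0.974 over 13 relations, n = 20 hearts) and Spearman's rho was 0.06 (permutation p = 0.824, adjusted p = 1.0). The r was 0.0015 without the 2 farthest hearts, and within cohorts it was 0.43 (Dp3Tyb) and -0.51 (Ts1Rhr). With the endothelial markers r was 0.06 (permutation p = 0.829, adjusted p = 0.974) and rho 0.05 (permutation p = 0.848, adjusted p = 1.0), with r of 0.09 without the 2 farthest hearts and of 0.01 and 0.12 within cohorts.

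The highest r of the 13 was that with the erythroid markers, 0.53 (permutation p = 0.0378, adjusted p = 0.491), with a rho of 0.54 (permutation p = 0.0289, adjusted p = 0.376). It was 0.42 without the 2 farthest hearts and 0.44 and 0.64 within the Dp3Tyb and Ts1Rhr cohorts, and did not pass the adjusted threshold. The erythroid markers, led by the globins Hbb-y and Hba-a1, had positive log2 fold changes for 9 of 9 tested in Dp3Tyb and 9 of 10 in Ts1Rhr, none of which passed the limma test. Their sums were 28098 to 60606 normalised reads in Dp3Tyb against 20191 to 44842 in WT, and 65775 to 100410 in Ts1Rhr against 41727 to 120760 in WT, with log2 differences of 0.14 (exact permutation p = 0.659, adjusted p = 0.889) and 0.26 (exact permutation p = 0.437, adjusted p = 0.764). Per 100 units of this sum the Entpd1 groups overlapped, at 0.96 to 2.25 against 0.87 to 1.79 and at 0.56 to 0.85 against 0.38 to 0.99. With the share of mitochondrial reads r was 0.01 and with total reads 0.13 (adjusted permutation p = 0.974 each).

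The genes most like Entpd1 over the 20 hearts, after removing group means, were Ociad2 with a Pearson's r of 0.70, Rbm4 with 0.66, Mlx with 0.64, Zfp790 with 0.63 and Hipk1 with 0.63. The least like were Bag5 with -0.73 and Dnase1l1 with -0.74, over 12149 genes with a mean of at least 50 normalised reads. Of the purine genes the closest was Adora1, with an r of 0.50 and rank 71. These are descriptions over hearts that share libraries and depth.

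None of the 8 members chosen by function passed the limma test in either strain. Of the 8, 7 could be tested: 0 passed in Dp3Tyb, where 0.0542% of all genes did, and 0 in Ts1Rhr, where 0.0269% did. At an unadjusted p under 0.05 there were 0 of 7 in Dp3Tyb and 3 of 7 in Ts1Rhr, against 2.80% and 5.52% of all genes. The edgeR and DESeq2 tests also gave 0. The 3 in Ts1Rhr were Nt5e, P2ry1 and Entpd5. For each of them WT of the Ts1Rhr cohort was itself lower than WT of the Dp3Tyb cohort. On the log2 scale this was -0.18 ± 0.11 for Nt5e, -0.28 ± 0.09 for P2ry1 and -0.15 ± 0.07 for Entpd5 (limma adjusted p = 0.833 each). The part of the WT level in these differences was not tested.

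Among the enzymes, Nt5e (chr9:88327609-88372089, plus strand), whose promoter window is printed above, makes adenosine from the AMP that Entpd1 leaves. It was measured at 138.2, 145.4, 162.1, 135.9 and 146.4 normalised reads in WT of the Ts1Rhr cohort and at 204.8, 153.3, 224.7, 185.6 and 197.3 in Ts1Rhr. Of the 5 Ts1Rhr hearts, 4 were above the highest WT heart, and replicate 2 lay within the WT range. The log2 fold change was 0.40 ± 0.11 (limma adjusted p = 0.795).

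In the Dp3Tyb cohort Nt5e was at 208.7, 162.2, 140.7, 151.8 and 170.3 normalised reads in WT and at 179.7, 179.2, 185.6, 155.6 and 186.0 in Dp3Tyb. The groups overlapped, and WT replicate 1 held the highest value. The log2 fold change was 0.10 ± 0.11 (limma adjusted p = 1.0), which differed from that in Ts1Rhr by -0.30 ± 0.15 (limma adjusted p = 1.0). In Dp3Tyb it was 0.18 without WT replicate 1 and 0.04 without WT replicate 3. In the test of the difference between strains 0 members passed, against 0.013% of all genes.

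The other hydrolases among the members were Entpd5 and Entpd2. Entpd5 (chr12:84373875-84409029, minus strand) was at 1090 to 1196 normalised reads in Ts1Rhr and 913 to 1178 in WT, with a log2 difference of 0.16 ± 0.07 (limma adjusted p = 0.795), and at 1083 to 1265 in Dp3Tyb and 1014 to 1209 in WT, with one of 0.03 ± 0.07 (limma adjusted p = 1.0). All 5 Ts1Rhr hearts were above their WT mean, as were 2 of 5 Dp3Tyb hearts. Entpd2 (chr2:25395874-25401323, plus strand), an ectoenzyme that prefers ATP, held 0 to 18 reads per library and 0 to 13.2 normalised reads. It did not reach the filter on low values and was not tested.

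The enzymes that remove adenosine stayed within their spread. Adk (chr14:21052574-21448569, plus strand) had 1186 to 1346 normalised reads in Dp3Tyb against 1272 to 1433 in WT, and 1176 to 1448 in Ts1Rhr against 1093 to 1421 in WT. Its log2 fold changes were -0.08 ± 0.06 (limma adjusted p = 1.0) and 0.01 ± 0.09 (limma adjusted p = 0.967). In Dp3Tyb it was -0.05 without Dp3Tyb replicate 4 and -0.05 among libraries with at most 10% of mitochondrial reads. None of the 5 Dp3Tyb hearts was above the WT mean. Ada (chr2:163726571-163750239, minus strand) was low, at 19.5 to 50.8 normalised reads over all hearts, and differed by -0.09 ± 0.19 in Dp3Tyb and 0.17 ± 0.20 in Ts1Rhr (limma adjusted p = 1.0 and 0.807).

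**Figure D3:**
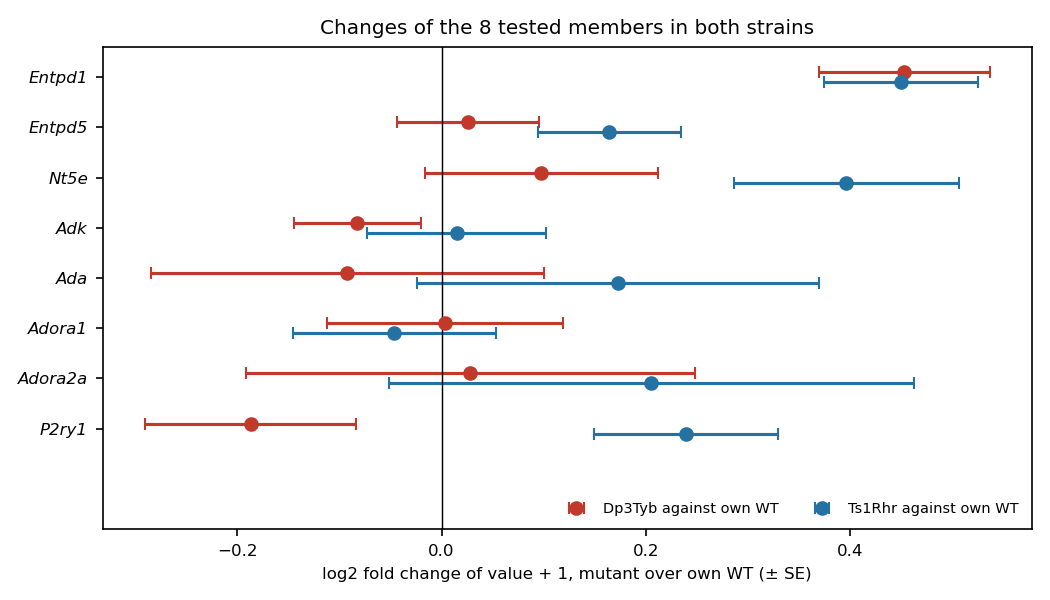
Log2 fold change of value + 1 (horizontal axis) with its SE for the 8 tested members, Dp3Tyb against own WT in red and Ts1Rhr against own WT in blue. Entpd1 sits at 0.45 in both, Nt5e at 0.10 and 0.40, and P2ry1 on opposite sides of 0 at -0.19 and 0.24.

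Of the receptors, P2ry1 (chr3:61002785-61008982, plus strand) binds ADP, a substrate of Entpd1. It was at 173.9, 177.4, 194.0, 192.9 and 240.8 normalised reads in WT of the Dp3Tyb cohort and at 176.3, 169.8, 169.5, 183.8 and 155.2 in Dp3Tyb. The groups overlapped, though each Dp3Tyb heart was below the WT mean. In the Ts1Rhr cohort it was at 160.9, 155.1, 150.5, 178.0 and 156.1 in WT and at 213.2, 184.5, 169.6, 189.9 and 190.0 in Ts1Rhr, where 4 of 5 hearts were above the highest WT heart.

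The log2 fold change of P2ry1 was -0.19 ± 0.10 in Dp3Tyb (limma adjusted p = 1.0) and 0.24 ± 0.09 in Ts1Rhr (limma adjusted p = 0.795). The difference between strains was -0.43 ± 0.13, with an unadjusted p of 0.00339 and a limma adjusted p of 1.0. The WT groups themselves differed: WT of the Ts1Rhr cohort minus WT of the Dp3Tyb cohort gave -0.28 ± 0.09 on the log2 scale (unadjusted p = 0.0057, limma adjusted p = 0.833). In that comparison 0 of the members passed, as did 0% of all genes. Of 15348 genes tested, 896 had an unadjusted p under 0.05, and edgeR called 0 and DESeq2 5. Cohort and any batch cannot be told apart there.

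The values of P2ry1 were also read without the libraries rich in mitochondrial reads. WT replicate 5 of the Dp3Tyb cohort was the highest of all hearts at 240.8 normalised reads, and without it the log2 fold change in Dp3Tyb was -0.11. Among libraries with at most 10% of mitochondrial reads it was -0.08 in Dp3Tyb and 0.25 in Ts1Rhr. Among hearts of the same group, the r of P2ry1 with the share of mitochondrial reads was 0.52 (permutation p = 0.0623, adjusted p = 0.465 over 91 relations) and rho 0.42 (permutation p = 0.09, adjusted p = 0.585), with r of 0.54 without the 2 farthest hearts and of 0.44 and 0.65 within cohorts. It did not pass the adjusted threshold.

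Markers of other cells were set beside P2ry1 too. Its r with the macrophage markers among hearts of the same group was -0.67 (permutation p = 0.0138, adjusted p = 0.18) and rho -0.42 (permutation p = 0.102, adjusted p = 0.585), with r of -0.30 without the 2 farthest hearts and of -0.72 and -0.58 within cohorts. With the endothelial markers r was -0.46 (permutation p = 0.0711, adjusted p = 0.465) and rho -0.38 (permutation p = 0.127, adjusted p = 0.585), with r of -0.50 without the 2 farthest hearts and of -0.39 and -0.58 within cohorts. With total reads r was -0.55 (permutation p = 0.0722, adjusted p = 0.465) and 0.03 without the 2 farthest hearts. None of these passed after adjustment. Markers of lung and foregut, led by Cdh1 and Epcam, also had differences of opposite sign in the 2 cohorts, with sums of 98.8 to 711 normalised reads in Dp3Tyb and 7.61 to 559 in WT, and of 11.5 to 490 in Ts1Rhr and 194 to 616 in WT. Of the 7 tested, 7 had a positive log2 fold change in Dp3Tyb and 0 in Ts1Rhr, none passed the limma test, and Sftpc was at 0 in 15 libraries. The log2 difference of the sum was 1.97 in Dp3Tyb (exact permutation p = 0.183, adjusted p = 0.669) and -1.98 in Ts1Rhr (exact permutation p = 0.167, adjusted p = 0.611). Among hearts of the same group, the r of P2ry1 with these markers was -0.09 (permutation p = 0.807, adjusted p = 0.929 over 91 relations) and rho 0.03 (permutation p = 0.904, adjusted p = 0.959), with r of -0.10 without the 2 farthest hearts and of -0.24 and 0.15 within cohorts. With the same markers r was -0.54 for Adk (permutation p = 0.00738) and -0.52 for Entpd5 (permutation p = 0.00735), with an adjusted permutation p of 0.112 each. Within the Dp3Tyb and Ts1Rhr cohorts it was -0.87 and -0.40 for Adk, and -0.64 and -0.40 for Entpd5. For Nt5e, Ada, Adora1 and Adora2a r lay between -0.22 and -0.06.

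The adenosine receptors did not separate mutant from WT hearts. Adora1 (chr1:134199215-134235457, minus strand), the inhibitory receptor, was at 219 to 298 normalised reads in Dp3Tyb against 226 to 308 in WT, and at 254 to 314 in Ts1Rhr against 262 to 358 in WT. Its log2 fold changes were 0.0034 ± 0.12 and -0.05 ± 0.10 (limma adjusted p = 1.0 and 0.889). In Ts1Rhr it was -0.26 among libraries with at most 10% of mitochondrial reads and -0.12 without the hearts labelled with defects. Adora2a (chr10:75316877-75334792, plus strand), the stimulatory receptor, varied most between hearts of the tested members, from 52.8 to 163 normalised reads, a coefficient of variation of 28.1% over the 20 libraries. It differed by 0.03 ± 0.22 in Dp3Tyb and by 0.21 ± 0.26 in Ts1Rhr (limma adjusted p = 1.0 and 0.817).

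Among hearts of the same group Adora2a varied together with the endothelial markers. After removing group means, Pearson's r was 0.85 (permutation p = 5e-05, adjusted p = 0.00227 over 91 relations of the 7 tested members other than Entpd1, n = 20 hearts) and Spearman's rho was 0.80 (permutation p = 0.00014, adjusted p = 0.00682). Without the 2 farthest hearts r was 0.81, within cohorts it was 0.84 and 0.91, and it lay between 0.80 and 0.90 when each heart was left out in turn. The rho within cohorts was 0.52 in the Dp3Tyb cohort (permutation p = 0.149) and 0.85 in the Ts1Rhr cohort (permutation p = 0.00749).

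Adora2a was related to the share of mitochondrial reads over the same hearts too, in the opposite direction, with an r of -0.86 (permutation p = 3e-05, adjusted p = 0.00227) and a rho of -0.81 (permutation p = 0.00015, adjusted p = 0.00682). The r was -0.82 without the 2 farthest hearts and -0.87 and -0.88 within cohorts. By rank, Adora2a gave a rho of -0.56 in the Dp3Tyb cohort (permutation p = 0.105) and of -0.93 in the Ts1Rhr cohort (permutation p = 0.00108). Its r with total reads was 0.71 (permutation p = 0.00132, adjusted p = 0.04) and its rho 0.54 (permutation p = 0.0225, adjusted p = 0.256), and r was 0.48 without the 2 farthest hearts and 0.83 and 0.68 within cohorts. With the macrophage markers r was 0.53 (permutation p = 0.0261, adjusted p = 0.237) and rho 0.44 (permutation p = 0.0724, adjusted p = 0.553), with r of 0.26 without the 2 farthest hearts and of 0.56 and 0.53 within cohorts, and it did not pass after adjustment. The heart with the least Adora2a, 52.8 normalised reads, was the Dp3Tyb littermate WT replicate 5, whose mitochondrial share was 19.5%. The part of the mitochondrial share in the relation with endothelial markers was not tested.

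**Figure D4:**
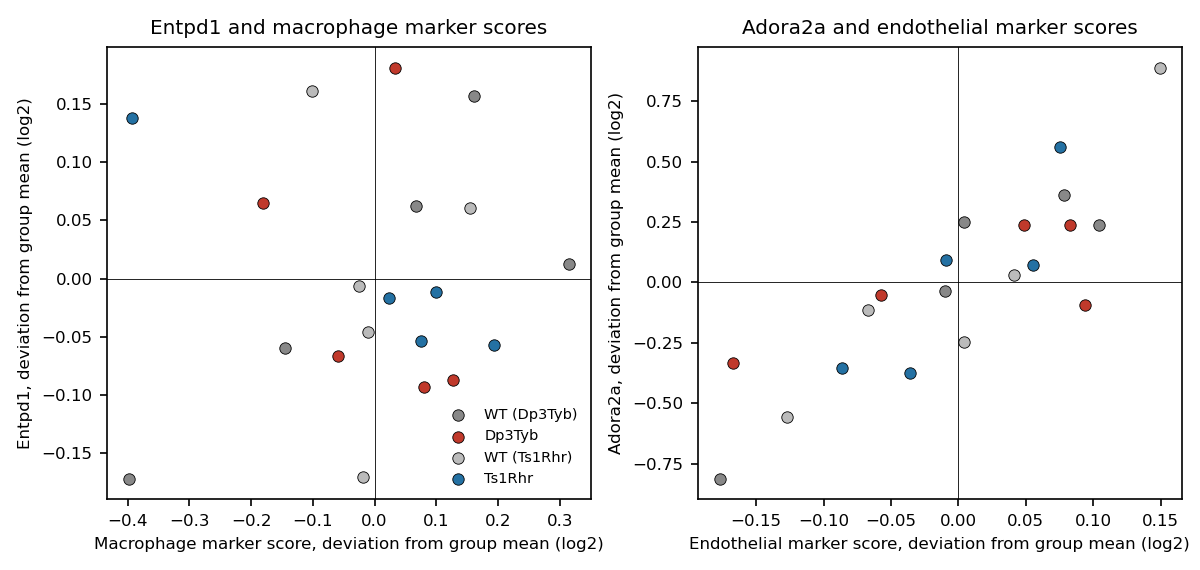
Deviations from the group mean (log2) of Entpd1 against the macrophage marker score (left) and of Adora2a against the endothelial marker score (right), 1 point per heart and 1 colour per group. The left panel shows no slope (r = 0.04), and the points of the right panel rise together (r = 0.85).

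The wider pathway was read from a list of 48 further genes, of which 47 were in the table. In Dp3Tyb 32 were tested and 0 passed the limma test. Of these 21 had a positive and 11 a negative log2 fold change, with a median of 0.07 beside -0.0027 over all genes tested, of which 48.9% were positive. In Ts1Rhr 30 were tested and 0 passed, 21 were positive and 9 negative, with a median of 0.10 beside -0.0016 over all genes, of which 49.6% were positive. At an unadjusted p under 0.05 there were 2 of 32 in Dp3Tyb and 2 of 30 in Ts1Rhr, against 2.80% and 5.52% of all genes, and DESeq2 and edgeR also called 0.

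The highest levels per length of the wider list were those of Ahcy, which splits S-adenosylhomocysteine and yields adenosine, with 512 normalised reads per kb, Entpd4, an NTPDase of intracellular membranes, with 185, the nucleotidase Nt5c with 173, the AMP deaminase Ampd2 with 112, and Dpp4, a cell surface protease known for binding Ada in humans, with 89.6. Entpd4 was the one gene of the wider list whose mutant and WT hearts did not overlap in a strain, at 1501 to 1618 normalised reads in Ts1Rhr and 1348 to 1466 in WT. That is 1 of 30 tested, where 0.619% of all genes were higher in Ts1Rhr with no overlap, and nothing is read from a single gene. Its log2 fold change was 0.14 ± 0.05 (limma adjusted p = 0.795). In Dp3Tyb, where the groups overlapped at 1467 to 1657 and 1339 to 1594, it was 0.08 ± 0.06 (limma adjusted p = 1.0).

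The largest log2 fold changes of the wider list were found at low levels. In Dp3Tyb they were 1.17 ± 0.62 for Slc17a9, a vesicular nucleotide transporter with 0 to 17.8 normalised reads, -0.86 ± 0.33 for the cytosolic nucleotidase Nt5c1a and 0.47 ± 0.23 for the ATP-gated channel P2rx7. In Ts1Rhr they were 0.43 ± 0.17 for Alpl, 0.37 ± 0.22 for the ATP and UTP receptor P2ry2 and 0.36 ± 0.24 for the transporter Slc29a4. P2ry2 was 0.23 without WT replicate 1 and 0.11 among libraries with at most 10% of mitochondrial reads, Slc29a4 was 0.16 without WT replicate 4, and Slc17a9 was 0.54 without WT replicate 5 of the Dp3Tyb cohort. None of these passed (limma adjusted p = 1.0 in Dp3Tyb and 0.795 in Ts1Rhr). Alpl, the tissue-nonspecific alkaline phosphatase, can also make adenosine from AMP, and it was at 49.3 to 78.3 normalised reads in Dp3Tyb against 41.1 to 49.9 in WT, and at 58.6 to 88.4 in Ts1Rhr against 44.0 to 65.9 in WT, with all 5 hearts of each strain above their own WT mean.

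By role, the log2 fold changes of the 3 tested surface hydrolases, Enpp1, Enpp3 and Alpl, were 0.32 to 0.38 in Dp3Tyb and -0.0039 to 0.43 in Ts1Rhr. The 3 intracellular NTPDases Entpd4, Entpd6 and Entpd7 gave 0.06 to 0.08 and 0.02 to 0.21. The 5 tested P2X channels gave -0.14 to 0.47 in Dp3Tyb and 0.06 to 0.32 in Ts1Rhr, and the 4 tested P2Y receptors of the list -0.33 to 0.16 and -0.24 to 0.37. The 9 tested genes of AMP and adenosine metabolism gave -0.86 to 0.25 in Dp3Tyb and -0.11 to 0.22 in Ts1Rhr. The 4 tested adenosine transporters gave -0.11 to 0.21 and -0.08 to 0.36. Of the release genes, 3 tested in Dp3Tyb gave -0.18 to 1.17 and 2 tested in Ts1Rhr -0.16 to 0.13. Adora2b, tested in Dp3Tyb alone, differed by 0.11 ± 0.43. No gene of these groups passed the test in either strain.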

How the data were processed

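The authors deposited 1 table of normalised values, a signal per gene equal to reads over a size factor of the library, for 48795 Ensembl genes and 20 libraries. The submitters' processing notes name Trimmomatic 0.36, STAR 2.5.2a, RSEM 1.2.31, DESeq2 and the GRCm38 build. Use of strand in counting is not given in the sources used here. Libraries were prepared with a KAPA mRNA HyperPrep kit. In each library 100% of values were whole multiples of 1 step (tolerance 0.1), with steps equal to size factors recomputed by the median of ratios over all 20 libraries, so reads were recovered. Depth was 6.60 to 19.6 M (mega) reads, and 21705 genes were at 0 everywhere.

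Symbols and exonic lengths came from GENCODE vM39, which held 91.3% of the identifiers; positions and promoter windows came from RefSeq GRCm38.p6. Groups came from the genotype labels. Dp3Tyb and Ts1Rhr were each set against their own WT by limma 3.58.1 (R 4.3.3; trend, robust, 2-sided) on log2(value + 1), for genes that reached a value of 10 in 5 or more libraries of the fit, with Benjamini-Hochberg adjustment over all genes tested and a threshold of 0.05. The difference between strains and the comparison of WT groups used all 20 libraries. The pseudocount shrinks differences of low genes, while a library near 0 can enlarge a mean of logs. The scripts were tested on simulated data. Members, purine list and marker lists were chosen with earlier results of these data known. Named were all members, tested genes within 200 kb of Entpd1 (1 is not reported here), the 5 genes most and 2 least like Entpd1, the 2 highest markers of a list described, and of the wider list the 5 highest per kb and the 3 with the largest change in each strain. Sums of 11 marker lists were compared by exact permutation over 252 divisions of 10 hearts (smallest p 0.00794) and adjusted over the lists; those not described had adjusted p of at least 0.669 in either strain. Relations used 100000 permutations within groups, 2-sided. edgeR 4.0.16 and DESeq2 1.42.0 on the recovered counts were alternatives. Pnp was not analysed here.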

Additional observations from a re-analysis of the deposited data

Results flagged for a closer look

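Of 36 sets of 5 hearts (9 members in 4 groups), 4 held a heart far from the others, where a gap to the nearest heart of over 0.71 of the range was counted; chance gives about 1 in 20. Entpd1 was 621.6 normalised reads in Ts1Rhr replicate 1, with the next heart at 560.3. Entpd2 was 12.3 normalised reads in Dp3Tyb replicate 4, from 17 reads, with the next at 5.59. Nt5e was 155.6 in Dp3Tyb replicate 4, the lowest of its group, with the next at 179.2. Adora1 was 358.2 in replicate 5 of WT of the Ts1Rhr cohort, with the next at 289.0.

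P2ry1 was below the WT mean in 5 of 5 Dp3Tyb hearts and above it in 5 of 5 Ts1Rhr hearts. The difference between the strains in its log2 fold change was -0.43 ± 0.13, and it did not pass the test across all genes (limma adjusted p = 1.0).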

How the results depend on the processing

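The log2 fold change of Entpd1 lay between 0.37 and 0.46 in Dp3Tyb over 9 alternatives and between 0.40 and 0.45 in Ts1Rhr over 10, and between 0.41 and 0.49 in both when each heart was left out. No member chosen by function and no gene of the wider list was called in either strain under any alternative run, and the members were called in neither of the comparisons across cohorts. No replicate block was fitted: replicate numbers were given in listing order and only name libraries, and the labels tie no mutant heart to a WT heart, although sex read from the data was the same in each pair of equal numbers. The number of genes called in Dp3Tyb, 8, became 30 with DESeq2, which was run on all genes without the filter on low values here and below, 30 among libraries with at most 10% of mitochondrial reads, 17 with all 20 libraries fitted, 4 with no filter and 4 with a sex term, and 2 to 13 when each heart was left out (2 without WT replicate 1, 13 without WT replicate 5). In Ts1Rhr, 4 became 24 with DESeq2, 11 with all 20 libraries, 0 at the mitochondrial limit, which left 3 Ts1Rhr and 2 WT hearts, 0 without the hearts labelled with defects, and 1 to 6 leaving out each heart (1 without Ts1Rhr replicate 1). The 2 genes called for the difference between strains became 0 with no filter, with a sex term and without the labelled hearts, and 0 to 3 leaving out each heart. Between the WT groups 0 became 5 with DESeq2 and 0 to 2 leaving out each heart. The causes were not tested.

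Differences near 0 changed sign without a call. In Dp3Tyb, Adora1 gave -0.014 with edgeR, -0.025 with DESeq2 and -0.095 at the mitochondrial limit, and Adora2a -0.042, -0.049 and -0.092. In Ts1Rhr at that limit Adk gave -0.078 and Adora2a -0.010. Leaving out each heart gave, in Dp3Tyb, -0.017 to 0.051 for Entpd5, -0.20 to 0.023 for Ada, -0.052 to 0.070 for Adora1 and -0.17 to 0.12 for Adora2a, and in Ts1Rhr -0.040 to 0.054 for Adk and -0.085 to 0.028 for Adora1. The r of Entpd1 with macrophage markers was -0.51 in the Ts1Rhr cohort. The log2 fold change of Slc17a9 in Dp3Tyb moved between 0.45 (pseudocount 10) and 1.86 (pseudocount 0.1), with 0.72 from edgeR and 0.74 from DESeq2, and that of Nt5c1a was -0.47 with a pseudocount of 10. In Ts1Rhr, Entpd5 was 0.076 at the mitochondrial limit, Ada 0.041 without Ts1Rhr replicate 2, 0.099 and 0.11 without WT replicates 2 and 3, 0.087 at that limit and 0.016 without the labelled hearts, and Adora2a 0.065 without Ts1Rhr replicate 3, 0.066 without WT replicate 4, 0.43 without WT replicate 5 and 0.45 without the labelled hearts. The relations of members other than Entpd1 and the values of Entpd1 per unit of markers were added after seeing the data. Depth limited low genes such as Entpd2, with 0 to 18 reads per library. Counting error is the least error these reads can have.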
